A study of Caenorhabditis elegans with 2 samples.

Results

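The chaperonin CCT (also called TRiC) is built from the products of 8 genes in Caenorhabditis elegans, cct-1 to cct-8, and ChIP-seq peaks of NHR-25, a nuclear hormone receptor, were examined at each of them. The genes were taken by name, and all 8 were found among the 19973 nuclear protein-coding genes of the annotation. In each gene and up to 2000 bp upstream, NHR-25 binding summits were collected from the deposited lists. The files hold ChIP-seq peak lists from 2 samples, which the labels call biological replicates 1 and 2, and both belong to the same group, so no second condition was compared. Both samples were whole L3 larvae, given as males and females pooled, of strain OP33, whose genotype is unc-119(ed3) III; wgIs33. This line carries a stable transgene that makes NHR-25 with GFP and FLAG at its C-terminal end, and the unc-119 mutation is shared by both samples. The antibody label names only nhr-25, and chromatin was broken by sonication. A pool of whole animals cannot show which tissue a summit comes from, and with 2 samples a spread can be given but no test can reach a threshold.

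CCT is a ring-shaped chaperone of the cytosol in which each subunit takes a fixed place and which folds actin, tubulin and several proteins with WD repeats. Prefoldin is a separate complex that hands unfolded actin and tubulin to it. The subunits fold these proteins as an assembled complex, and they are needed in most cells of the animal. NHR-25 is the worm member of a receptor family named after SF-1 and FTZ-F1, whose members bind DNA as monomers at an element with the core CAAGGTC or CAAGGCC, and it is known in worms for roles in epidermal development and molting.

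In the list of peaks that passed the authors' threshold on the irreproducible discovery rate (IDR), 6 of the 8 CCT genes had a summit in the promoter window, here 2000 bp upstream to 200 bp downstream of the annotated 5′ end of the gene. These were cct-1, cct-2, cct-5, cct-6, cct-7 and cct-8, or 75% of the family, and the background over all genes was 18.4%. The same 6 genes had a summit when the whole gene and 2000 bp upstream were counted, for which the background was 21.5%. No summit of the IDR list lay in or near cct-3 or cct-4. The CCT windows held 11 IDR summits, 8 of them in promoter windows.

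The DNA at the strongest promoter summit is shown here for the 6 bound genes and for cct-4, whose region fell just short of the IDR list, so that the words described further on can be seen in place. Each line gives 151 bases around the summit, 5′ to 3′ on the strand of the CCT gene, from the RefSeq genome WBcel235, which is ce11. Capitals mark paired heat shock units (GAANNTTC or TTCNNGAA) in the 6 bound genes and the NHR-25 core CAAGGCC in cct-4.
cct-1 (chrII:8185136-8185286, plus strand): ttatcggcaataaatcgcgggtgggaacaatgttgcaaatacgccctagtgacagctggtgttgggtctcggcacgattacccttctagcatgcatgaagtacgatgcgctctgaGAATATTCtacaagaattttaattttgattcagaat
cct-2 (chrII:8927366-8927516, plus strand): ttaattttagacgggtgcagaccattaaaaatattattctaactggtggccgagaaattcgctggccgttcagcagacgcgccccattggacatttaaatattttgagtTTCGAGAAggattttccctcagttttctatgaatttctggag
cct-4 (chrII:8283332-8283482, plus strand): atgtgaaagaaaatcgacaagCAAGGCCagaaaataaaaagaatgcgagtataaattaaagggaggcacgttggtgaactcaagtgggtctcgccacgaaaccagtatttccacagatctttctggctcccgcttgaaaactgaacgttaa
cct-5 (chrIII:4508444-4508594, minus strand): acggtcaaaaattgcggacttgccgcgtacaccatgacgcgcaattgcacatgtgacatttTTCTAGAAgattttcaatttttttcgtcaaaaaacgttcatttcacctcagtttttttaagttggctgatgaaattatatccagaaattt
cct-6 (chrIII:5855895-5856045, minus strand): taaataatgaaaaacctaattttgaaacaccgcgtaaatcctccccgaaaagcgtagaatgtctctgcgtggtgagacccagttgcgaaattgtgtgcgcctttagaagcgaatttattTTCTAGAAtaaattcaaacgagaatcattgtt
cct-7 (chrV:1871907-1872057, plus strand): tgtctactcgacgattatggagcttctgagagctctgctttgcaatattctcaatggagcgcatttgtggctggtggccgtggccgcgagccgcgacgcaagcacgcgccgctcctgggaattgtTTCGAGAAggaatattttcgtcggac
cct-8 (chrIV:1094246-1094396, minus strand): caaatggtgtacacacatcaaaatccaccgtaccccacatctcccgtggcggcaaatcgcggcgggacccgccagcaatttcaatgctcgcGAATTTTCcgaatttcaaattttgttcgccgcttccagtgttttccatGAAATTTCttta

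Peak height is given as the authors' signal, a height per region on a scale that no label or file header states. The lists per replicate and for the pool each had 30000 regions, background included, and ranks are places by signal in those lists. The IDR list held 5017 peaks, which were the 5017 highest regions of the pooled list, with a lowest signal of 42.2, a median of 74.31 and a highest of 919.6. Over the 3673 genes with a promoter IDR summit, the strongest one had a median signal of 83.94. The 6 bound CCT genes had a median of 97.27, and 4 of them stood above the median of all bound genes. At nhr-25 itself, the gene of the tagged protein, the strongest region in the promoter window had a signal of 463.5. The strongest IDR summit at this gene, with a signal of 714.4, lay outside that window. The transgene of this line also carries nhr-25, and the part of this in the height was not tested.

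The highest CCT summit was that of cct-1, the alpha subunit (WBGene00000377, chrII:8185443-8187601, plus strand). Its pooled signal was 218.5 (rank 298), and replicates 1 and 2 gave 130.9 (rank 131) and 88.98 (rank 609). The summit lay 232 bp upstream of the annotated 5′ end, the replicate summits were 11 bp apart, and 91.6% of the genes with a promoter IDR summit had a lower signal. The region spanned 172 bp, against the 350 bp that most regions have. Only 12% of the IDR peaks were narrower than 350 bp, and cct-1 and cct-8 were among them.

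Second in height was cct-8, the theta subunit (WBGene00021934, chrIV:1087108-1093920, minus strand). Its pooled signal was 186.3 (rank 434), with 95.08 (rank 361) in replicate 1 and 88.01 (rank 635) in replicate 2, in a region of 132 bp with the summit 401 bp upstream. The replicates differed least here, by 0.11 on the log2 scale (log2 of replicate 2 over replicate 1 was -0.11), with summits 21 bp apart. Both cct-1 and cct-8 exceeded 128.7, the upper quartile of the strongest promoter signals of all bound genes.

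A middle group was formed by cct-6 (zeta; WBGene00000381, chrIII:5853530-5855687, minus strand), cct-7 (eta; WBGene00020391, chrV:1872246-1875505, plus strand) and cct-2 (beta; WBGene00000378, chrII:8927741-8929815, plus strand). The cct-6 summit, 283 bp upstream, had a pooled signal of 106.3, with 61.87 in replicate 1 and 45.75 in replicate 2. The cct-7 summit, 264 bp upstream, had 88.24, 25.05 and 60.12 in the same order, and its replicate summits were 4 bp apart. At cct-2, 300 bp upstream, the values were 81.96, 48.13 and 35.66. These genes lay between percentiles 49.0 and 64.4 of the bound genes. The order among them depended on the sample, since cct-7 was the lowest of the 3 in replicate 1 and the highest in replicate 2.

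The weakest of the 6 was cct-5, the epsilon subunit (WBGene00000380, chrIII:4499188-4508114, minus strand), at percentile 20.2 of the bound genes. Its promoter summit, 405 bp upstream, had a pooled signal of 54.91, with 27.95 in replicate 1 and 22.19 in replicate 2. In replicate 2 it ranked 5162, below the first 5017. Unlike the other members, cct-5 also carried 3 IDR summits inside the gene, all within intron 2 of 7, which is 6134 bp long. They lay 2954 bp, 5094 bp and 5298 bp downstream of the 5′ end, with signals of 110.5, 51.35 and 80.47, and the last pair was 204 bp apart. The first and the last of these intron summits were higher than the promoter summit of the same gene, so the strongest IDR summit of cct-5 was not at its promoter. Among all genes with a promoter IDR summit, 364 (9.91%) had another further inside the gene, and in 152 of those (41.8%) the inner one was the higher.

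The remaining members were the gamma and delta subunits. At cct-4, delta (WBGene00000379, chrII:8283667-8285711, plus strand), a region 260 bp upstream had a pooled signal of 38.68, with 26.44 in replicate 1 and 11.84 in replicate 2, with replicate summits 10 bp apart. It stood at rank 5454 of the pooled list, 437 places below the end of the IDR list, at rank 4024 in replicate 1 and at rank 9772 in replicate 2. In replicate 1 alone it would have stood among the first 5017 regions, and the replicates differed by -1.16 on the log2 scale, the lowest ratio of the 7 members that have one. The IDR list ended between signals of 42.2 and 42.19, so the cct-4 region lies outside it by a small step in height.

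At cct-3, gamma (WBGene00018782, chrII:2233540-2243539, plus strand), the strongest region in the promoter window had a pooled signal of 9.643 at rank 25272 of 30000, and neither replicate list had a summit within 100 bp. The highest of the 9 pooled regions in or upstream of the gene reached 15.54, near the median of 14.75 of all pooled regions. The sequence upstream of cct-3 is also less unique than that of the others: 75.8% of its 36-base words in the gap to the next gene occurred once in the genome, against 100% in the gaps of the other 7 genes. The part of this in the low signal was not tested.

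**Figure D1:**
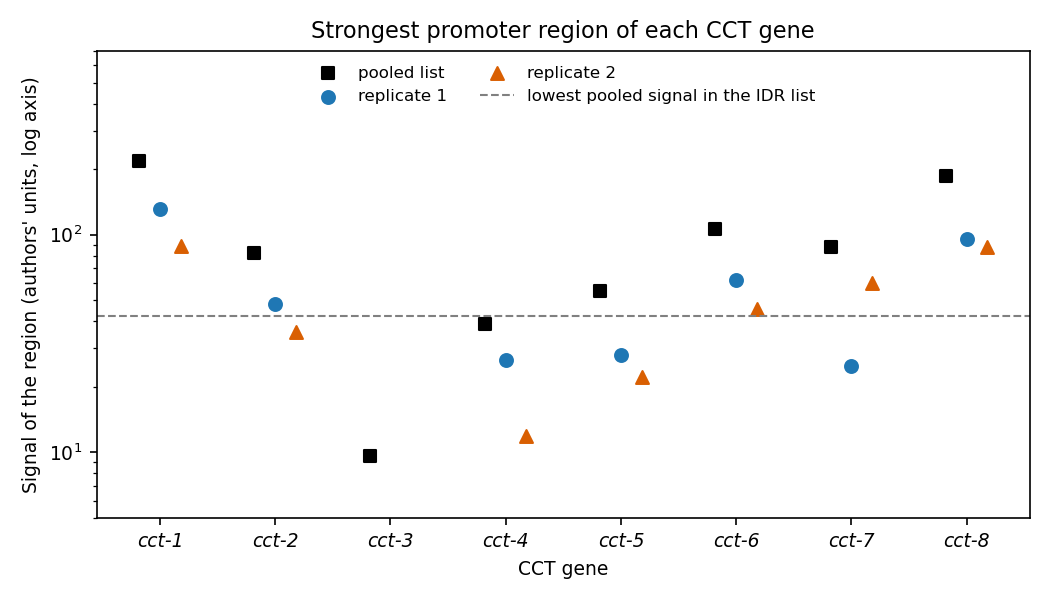
Signal of the strongest promoter region of each CCT gene in the pooled list (squares), replicate 1 (circles) and replicate 2 (triangles), in the authors' units on a log axis, with the lowest signal of the IDR list (42.2) as a dashed line. Replicate 1 lies above replicate 2 at every gene with both values except cct-7, and cct-3 has only a pooled value.

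Between replicates, the 6 IDR promoter summits shifted mostly the same way. Replicate 1 was higher at cct-1, cct-2, cct-5, cct-6 and cct-8, with log2 ratios of replicate 2 over replicate 1 between -0.56 and -0.11, and replicate 2 was higher at cct-7, with a ratio of 1.26. The median of the 6 was -0.38 (SD 0.68), and over 4688 IDR peaks matched within 100 bp it was 0.12 (SD 0.73). The CCT median minus that of all peaks was -0.50, a difference that was not tested. A ratio as high as that of cct-7 occurred at 5.52% of the matched peaks. When the 5017 highest regions of 1 replicate took the place of the IDR list, replicate 1 gave a promoter summit to 7 members (cct-4 joined the 6) and replicate 2 gave one to 5 (cct-5 dropped out), with 18% and 17.8% of all genes.

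The upstream summits took up a narrow range of positions. All 6 strongest IDR summits lay 232 to 405 bp upstream, with a median of 291.5 bp, and the cct-4 and cct-3 regions at 260 and 411 bp were in or next to the same range. Over all genes with a promoter IDR summit the median was 367 bp, with quartiles at 157 and 1102 bp. A strongest summit at 200 to 500 bp upstream was found at 921 of these genes (25.1%). That range takes in the positions of all 6 members, so the share is a description and no test. Genes with a divergent neighbour were not set apart in this comparison. None of the 6 members had its strongest summit in the first 200 bp, where the distribution over all genes peaks.

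**Figure D2:**
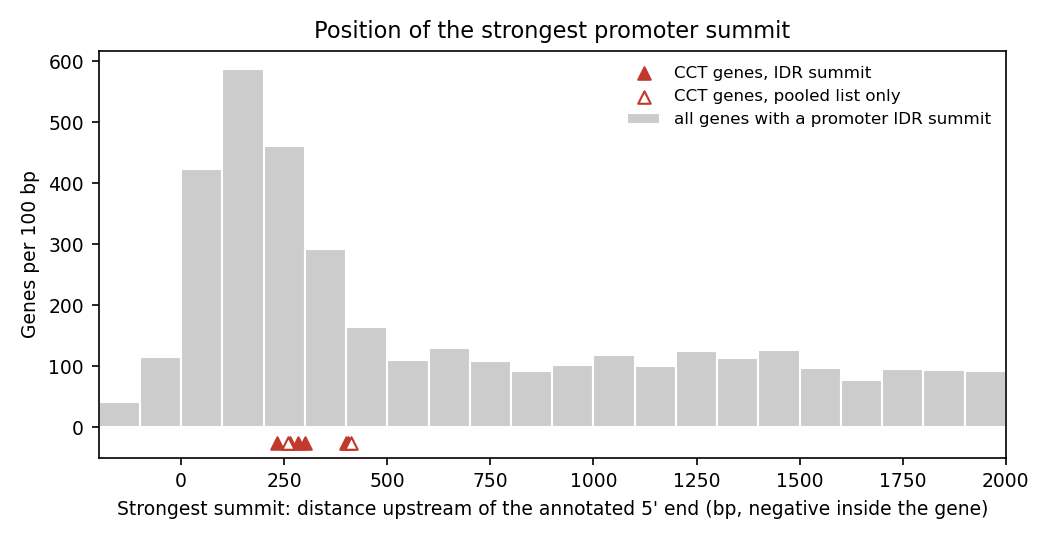
Position of the strongest promoter summit, in bp upstream of the annotated 5′ end, for all 3673 genes with a promoter IDR summit (bars, genes per 100 bp) and for the CCT genes (triangles, filled for IDR summits and open for regions of the pooled list only). The CCT summits lie between 232 and 411 bp upstream, to the right of the highest bar.

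The annotated 5′ ends themselves are close to the start codon. Many worm mRNAs receive a short spliced leader in place of their own first bases, so that the annotated end is a splice acceptor and transcription begins further upstream. At 7 of the 8 genes (all but cct-4) the annotated end directly followed the letters AG, which was so at 27.6% of all genes. In 4 of them (cct-1, cct-2, cct-5 and cct-6) the letters were the acceptor word TTTCAG, found at 12% of all genes. The stretch from annotated end to start codon was 1 to 30 bp long. How far the summits lie from the true starts of transcription was not measured.

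Every CCT gene faces a gene on the other strand. At all 8 the nearest upstream protein-coding neighbour was divergent, and the gaps ranged from 330 bp at cct-6 to 1189 bp at cct-2, with a median of 539 bp. Of all genes, 45.4% had a divergent upstream neighbour and 25.8% had one at most 2000 bp away. Among the 5146 genes of the latter kind, 28.7% had a promoter IDR summit, which is the background that fits the layout of this family. The neighbours have varied products: mig-5 (at cct-1) is a Dishevelled homologue of Wnt signalling, alh-9 (at cct-6) an aldehyde dehydrogenase, nst-1 (at cct-4) a nucleostemin-like GTPase, and Y55F3AR.2 (at cct-8) a protein with a thioredoxin domain.

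The strongest summit of the promoter window lay in the shared gap at all 6 bound genes, and at 5 of them it was nearer to the neighbour. It was 188 bp from the annotated 5′ end of mig-5, 336 bp from F25F2.1 (at cct-5), 48 bp from alh-9, 175 bp from T10B5.4 (at cct-7) and 220 bp from Y55F3AR.2. At cct-2 it was nearer to the CCT gene, with B0457.2 890 bp away. Over all 1476 divergent genes with such a summit, it was nearer to the neighbour in 791 (53.6%). With each summit given only to the gene with the nearest annotated 5′ end, cct-2 alone of the family kept a promoter summit (12.5%, and 12.5% of all genes). Whether these peaks belong to the CCT gene, to its neighbour or to both cannot be told apart here.

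The other pair of promoter IDR summits lay inside the neighbours. Upstream of cct-2, a summit at chrII:8926495 with a signal of 49.48 fell 1246 bp from the 5′ end of cct-2. It lay 56 bp into B0457.2, in a coding exon, and the 5′ end of B0457.2 was the nearest one. Upstream of cct-6, a summit at chrIII:5857052 with a signal of 54.91 fell 1365 bp from the 5′ end, 1034 bp into alh-9 and outside its exons. The cct-7 summit lay in an exon of the non-coding gene T10B5.13.

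**Figure D3:**
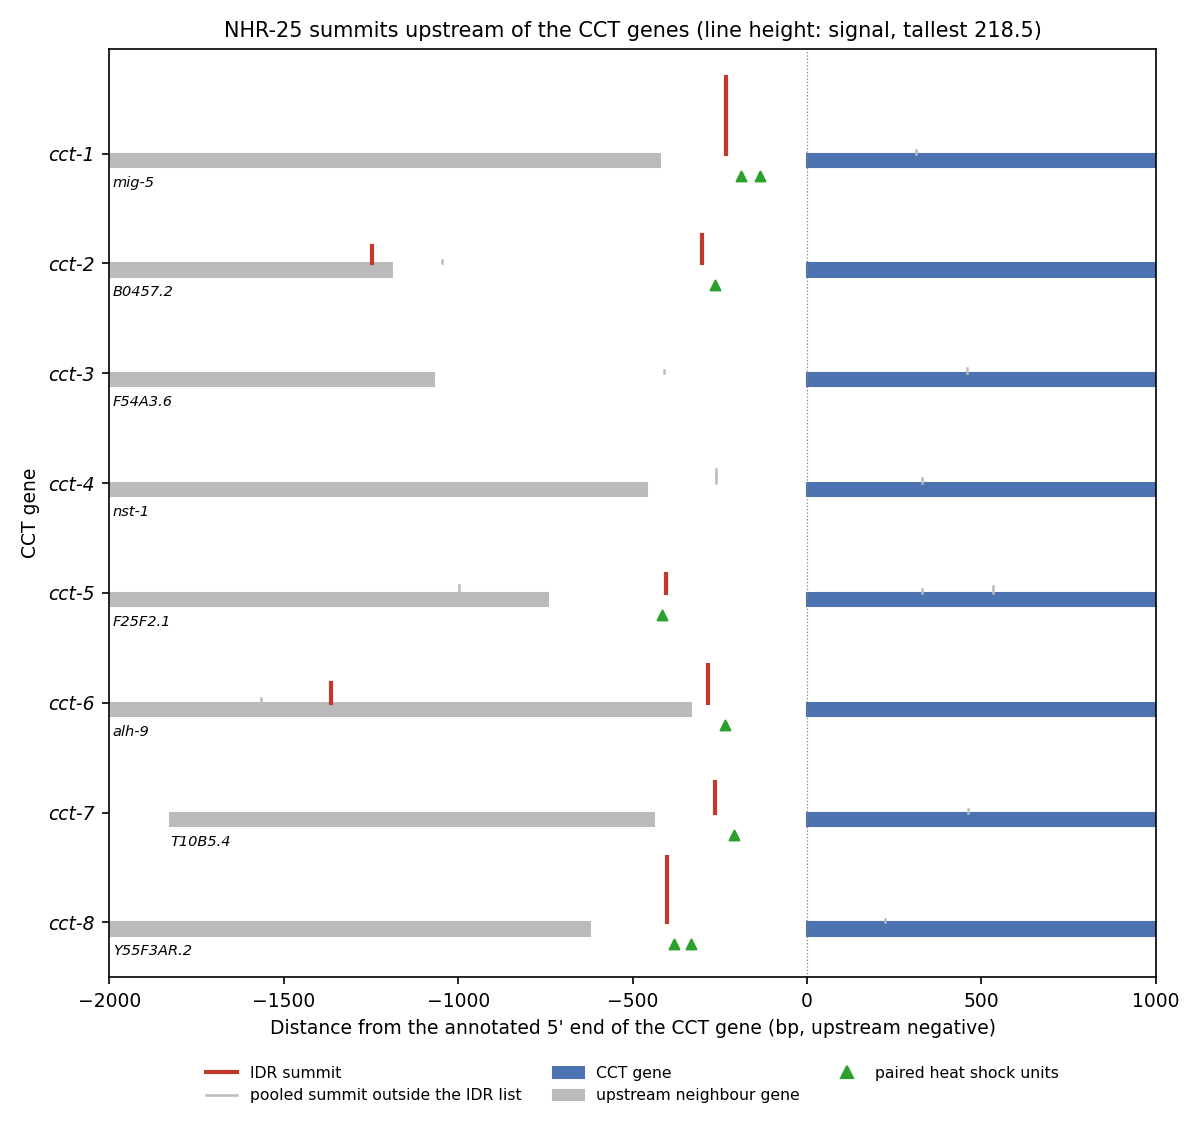
The 8 CCT genes (blue) and their divergent upstream neighbours (grey) drawn to scale against the distance in bp from the annotated 5′ end of the CCT gene, with IDR summits in red, other pooled summits in light grey (line height is pooled signal, up to 218.5) and paired heat shock units within 100 bp of an IDR promoter summit as green triangles. The tallest red line of the promoter window stands in the gap between the genes at 6 of the 8, each with at least 1 triangle; the intron summits of cct-5, of which the highest has a signal of 110.5, lie beyond the right edge.

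The core of the NHR-25 element, CAAGGTC or CAAGGCC on either strand, was found within 100 bp of none of the 8 CCT promoter IDR summits. It was found at 175 of all 2870 promoter summits (6.1%), so few matches would be counted at 8 summits at that rate. The longer word TCAAGGTCA was also absent from the 8 (0.801% of all). The only match was the CAAGGCC printed above for cct-4, 51 bp upstream of its summit and 311 bp upstream of the gene, at a region outside the IDR list. A missing match says only that these letters are not in the window.

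The letters that did recur were paired heat shock units. Heat shock factor, HSF-1 in worms, is a regulator of chaperone genes that binds inverted repeats of the unit GAA. The spelling searched was GAANNTTC or TTCNNGAA, each of which reads the same on both strands. It was found within 100 bp of 6 of the 8 CCT promoter IDR summits, against 482 of 2870 (16.8%) over all promoter summits. The 6 were the strongest promoter summits of the 6 bound genes, while the cct-2 and cct-6 summits inside the neighbours had none. Counted at the strongest promoter summit of each gene, the match stood at 6 of 6 CCT genes and at 656 of 3673 genes in all (17.9%).

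The matched words differed but repeated between members. TTCTAGAA stood at cct-5 and cct-6, and TTCGAGAA at cct-2 and cct-7. The cct-1 summit had GAATATTC and TTCTGGAA (the latter outside the printed 151 bases), and cct-8 had GAATTTTC and GAAATTTC. At cct-5 the match was centred at -10.5 bp, just upstream of the summit. In the other 5 genes every match lay downstream of the summit, toward the CCT gene, from 19.5 bp at cct-8 to 96.5 bp at cct-1. Measured from the annotated 5′ ends, the matches were centred 135.5 to 415.5 bp upstream.

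Several further counts, added after this match was seen, bear on how common the letters are. Within 500 bp upstream of the annotated 5′ end, with no reference to peaks, the paired units occurred at all 8 CCT genes, cct-3 and cct-4 included, and at 48.3% of all genes. The summit matches of the 6 bound genes lie within this stretch, so only cct-3 and cct-4 are new in this count. In windows centred 1000 bp to the left and to the right of the 8 promoter summits along the chromosome they occurred at 3 and 3. To the right these were both cct-2 summits and cct-8. The window beside the cct-2 summit inside B0457.2 took in the strongest cct-2 summit and its TTCGAGAA, so that match is not away from summits. Over all promoter summits the shares were 25% and 24.1%, so over all peaks the units were less frequent at summits than beside them. Windows that reached another summit were kept in these counts. With the letters of the units reversed (AAGNNCTT or CTTNNAAG), a match was found at 1 of the 8 CCT summits and at 6.72% of all. A run of 3 adjoining units was found at none of the 8 and at 1.29% of all.

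Base composition moved with these counts to some degree. The windows of 201 bp at the 7 summits shown held 37.3% to 52.2% G and C (median 38.8%), with a median of 41.8% over all promoter summits. The paired units were found at 22.4% of promoter summits under 40% G and C and at 13% of the others. The richest CCT windows, cct-7 at 52.2% and cct-8 at 47.8%, had the match too.

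Of the other words searched, TGATAA, the site of GATA factors, stood at 1 of the 8 CCT promoter summits (the one inside B0457.2) and at 13% of all. CACGTG and GAGAGAG stood at none of the 8, and at 6.62% and 16% of all.

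Genes that work with CCT were described in the same way. Of the 6 prefoldin genes, 5 had a promoter IDR summit (83.3%), at a median signal of 58.86; the highest were pfd-1 at 191.9, pfd-6 at 132.9 and pfd-3 at 58.86, and pfd-2 had none. Of 21 actin and tubulin genes, the main clients, 9 had one (42.9%), led by tba-1 at 312.3, tba-2 at 270.3 and act-2 at 224.6, while act-1 and act-4 had none. Among 4 genes for clients with WD repeats, fzr-1 (163.1) and gpb-1 (73.66) had one, and gpb-2 and fzy-1 did not. Each of these shares stood above the 18.4% of all genes, as did that of CCT.

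The other chaperones and 2 large complexes gave a similar range. In the cytosolic HSP70 and HSP90 system 11 of 15 genes had a promoter IDR summit (73.3%), with bag-1 at 339.9, hsp-110 at 237.0 and dnj-19 at 193.3, and without one at cdc-37 or chn-1. The endoplasmic reticulum chaperones had 9 of 12 (75%), led by hsp-3 at 341.6, the mitochondrial chaperones 2 of 3 (hsp-60 at 222.6 and hsp-6 at 125.8, not dnj-10), the proteasome 19 of 32 (59.4%, rpn-3 highest at 237.0) and the ribosomal proteins 69 of 76 (90.8%, median 166.5). Both hsp-110 and rpn-3 are on chromosome III with the same signal, so the same summit may be counted in both lists. The heat-inducible and small heat shock proteins stood near the background, with 3 of 13 (23.1%), and heat shock factor and its regulators had 2 of 4. The CCT share and median signal were within the range of these lists. By nearest 5′ end the CCT share was 12.5%, with 0 of 3 for the mitochondrial chaperones, 7.69% for the heat-inducible and small heat shock proteins, 23.8% for actin and tubulin and 25% for heat shock factor and its regulators. It was 46.7% for the cytosolic HSP70 and HSP90 system, 46.9% for the proteasome, 50% for prefoldin, the WD-repeat clients and the ribosomal proteins, and 66.7% for the endoplasmic reticulum chaperones.

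The lists differed more in the letters at the strongest summit. Paired heat shock units stood at 6 of 6 CCT genes, 10 of 11 genes of the cytosolic HSP70 and HSP90 system (hsp-90 lacked them), both bound mitochondrial chaperones, hsp-60 and hsp-6, and 3 of 5 prefoldin genes (pfd-3, pfd-4 and pfd-5). They stood at none of the 9 endoplasmic reticulum chaperones, at 1 of 9 actin and tubulin genes (tba-9), at 1 of 19 proteasome genes (rpn-3) and at 11 of 69 ribosomal protein genes (15.9%). The rpn-3 match may be that of hsp-110, which has the same signal on the same chromosome, so these lists may not be separate counts. Among the smaller lists they stood at 1 of 3 heat-inducible and small heat shock proteins (hsp-16.41), at 1 of 2 WD-repeat clients (fzr-1) and at 0 of 2 genes of heat shock factor and its regulators. The genome-wide value at the strongest summit was 17.9%. This split by list was drawn after the CCT match was seen, so the counts describe these genes and are no test.

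**Figure D4:**
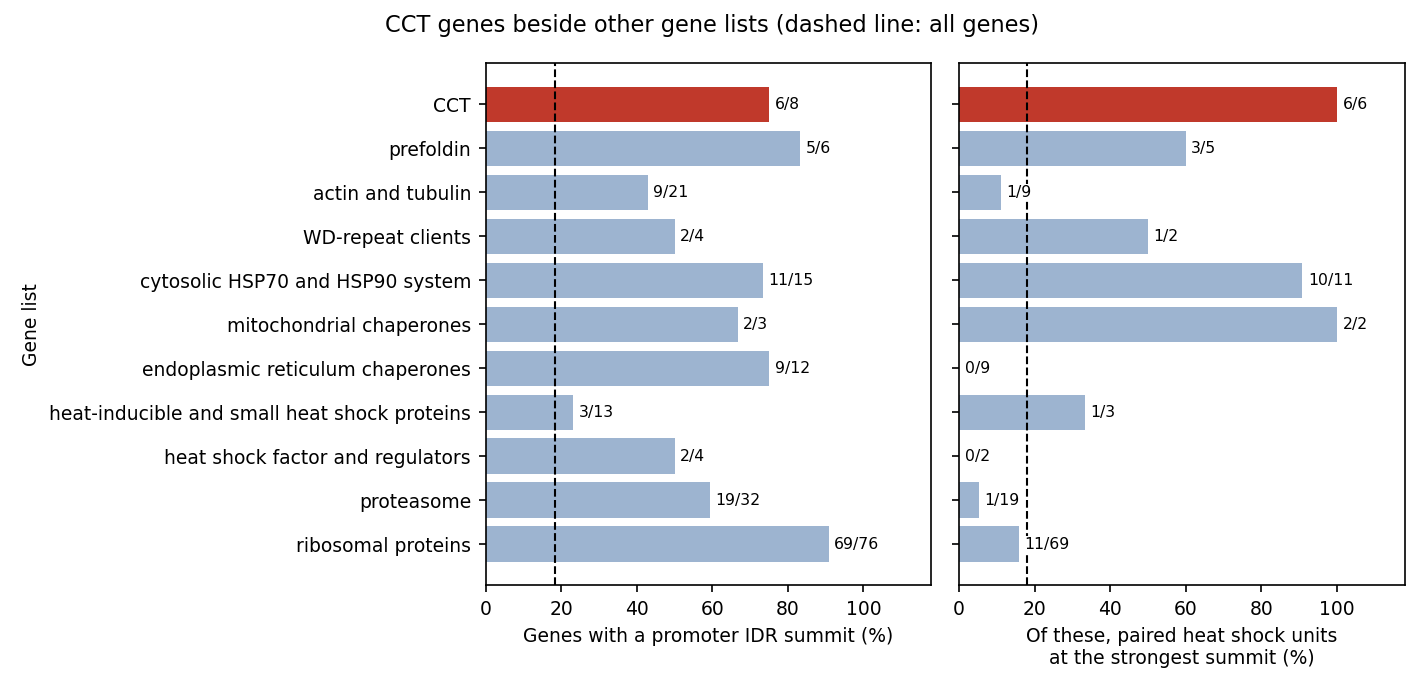
Left, share of genes in each list that have a promoter IDR summit; right, share of those whose strongest such summit has paired heat shock units within 100 bp, both in percent, with counts beside the bars and all genes as dashed lines (18.4% and 17.9%). On the left CCT (6 of 8) is within the range of the other lists; on the right the shares run from 0 of 9 endoplasmic reticulum chaperones and 1 of 3 heat-inducible and small heat shock proteins to 10 of 11 cytosolic chaperones, 2 of 2 mitochondrial chaperones and 6 of 6 CCT genes.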

How the data were processed

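The deposited peak lists on ce11 were used; lists on ce10 were not. Each list gives, per the labels and the deposited index text, regions called by the authors against a control alignment, per replicate and on pooled replicates. The authors' signal column is a peak height of unstated scale, and the deposited q-value column (−log10) was at its maximum of 3.86 for 71.8% of IDR peaks, so ranks use signal. For aligner, peak caller and IDR threshold: not given in the sources used here. Read depth and enrichment over input were not analysed here.

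Genes came from Ensembl release 115 and sequence from RefSeq WBcel235, read with Python 3.11.15 and pandas 2.3.3. Summits were matched between lists within 100 bp, words were searched on both strands within 100 bp of a summit, and the counting was tested on simulated data. Named genes were all 8 members, genes sharing their summits, up to 3 strongest and 2 unbound genes of each list, and nhr-25; of these, only those a result turns on are printed. daf-21, hsp-16.11 and hsp-16.49 were not found under these names. Members and lists were chosen with earlier results of these data known. No region was identical between replicate lists. Alternatives were other peak lists, single replicates, window lengths, assignment rules, match distances and search widths.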

Additional observations from a re-analysis of the deposited data

How the results depend on the processing

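Of 48 alternative values over 7 results, 39 stayed within the limits set for them. These limits were wide, since 8 CCT genes in place of 6, or 4 summits with paired units in place of 6, counted as within them. Windows of 1000 and 500 bp upstream could not change the count of CCT genes or their median signal. The strongest IDR summits all lay at most 405 bp upstream. The number within limits is therefore no measure of robustness. Only the median log2 ratio between replicates has a direction, and it stayed negative, from -0.433 to -0.333. The other results are counts or a median height. The number of CCT genes with a promoter IDR summit (6) was 1 when a summit counted only for the nearest 5′ end. By that rule 12.5% of all genes had one, and the CCT share was also 12.5%. At 5 of the 6 bound genes the strongest summit was nearer to the neighbour. Without 1 replicate the number of CCT genes was 5 to 7. It was 5 in the upper part of the IDR list (2508 peaks), where 10.6% of all genes had one, and 8 with all pooled regions, where 48.9% had one. The median CCT signal (97.3) was 106.0 in the upper part of the list, 85.1 over all pooled regions and 48.1 to 60.1 with 1 replicate left out, where heights come from a single sample. The summits in the gene and 2000 bp upstream (11) were 7 in the upper part, 50 in the pooled list and 11 to 13 with 1 replicate left out. Promoter summits with the NHR-25 core (0) were 1 with the pooled list and 0 to 1 with 1 replicate left out, the added match being that of cct-4. Promoter summits with paired heat shock units (6), for which alternatives were chosen after seeing the data, ranged from 4, when 50 bp to each side were searched, to 7. No paired analysis was possible because there is a single group. Precision is limited by 2 samples, a signal of unstated scale and unknown read depth. A cct-3 summit can therefore be called only not detected in the IDR list. The parts of read depth and of the less unique sequence upstream of cct-3 in this were not tested.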

Other observations

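Apart from the heat shock units, a few words recurred between CCT summits; they were picked after reading the windows, so their counts are descriptions only. GGGTCTC (or GAGACCC) stood within 100 bp of the strongest summits of cct-1, cct-4 and cct-6, 3 of the 7 shown, and at 164 of all 2870 promoter IDR summits (5.71%). TGGTGGCC (or GGCCACCA) stood at cct-2 and cct-7 and at 19 promoter summits in all (0.662%). The 9-base word AGAAATTCG stood at cct-2, cct-5 and cct-8, and at 23 promoter summits (0.801%). No word was tied to a factor here.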
